A study of Mus musculus with 6 samples.

Results

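Cyclic nucleotide phosphodiesterases were followed in mouse ovarian granulosa cells before and after an ovulatory dose of hormone, with and without the protein kinases ERK1 and ERK2. The set was 9 genes chosen by name (Pde4a, Pde4b, Pde4d, Pde3a, Pde3b, Pde7b, Pde8a, Pde10a and Pde1a) of 18194 genes on the arrays, and their 25 probe sets were those the platform annotation assigns to these genes alone, of 45101 in all. Female mice aged 23 days were primed for 48 h with 5 IU of equine chorionic gonadotropin (eCG), and granulosa cells were collected with no further hormone (0 h) or 2.5 h or 4 h after 5 IU of human chorionic gonadotropin (hCG), a ligand of the luteinizing hormone receptor. One genotype was wild type. The other, called knockout here, was ERK1 knockout with ERK2 fl/fl and Cyp19CRE, so ERK1 was lost by a germline allele and ERK2 was to be deleted where the Cyp19 (aromatase) promoter drives Cre, as it does in granulosa cells. Each genotype and time had 1 array, 6 in all. There were no replicates, and a difference between a pair of arrays has no replicate check and no p-value.

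Phosphodiesterases break the phosphate ring of cAMP and cGMP and so end the signal that adenylyl and guanylyl cyclases begin. In granulosa cells cAMP is the main messenger of follicle-stimulating hormone and luteinizing hormone, and in the oocyte a high cAMP level holds meiosis in arrest, with cGMP from the granulosa cells protecting it. The PDE4, PDE7 and PDE8 families cleave cAMP only, PDE3 and PDE10 cleave both nucleotides, and PDE1 is switched on by calcium and calmodulin. PDE4 genes are known both as targets of cAMP signalling and as sources of proteins that ERK can phosphorylate. The arrays measured RNA only.

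The values were RMA intensities, 1 per probe set and array, on a linear scale. Array medians were 54 or 55, and 47.1% to 47.6% of probe sets reached an intensity of 64 (log2 of 6), used here as the floor, since dimmer values may be mostly background. Each gene was represented by its brightest probe set, and 11153 genes had a mean log2 at or over the floor. The granulosa identity of the cells was checked on 9 measured markers, all of which were over the floor. Oocyte (15 of 16 measured), theca (6 of 7), macrophage and leukocyte (11 of 14), endothelial (4 of 10) and smooth muscle and stromal (9 of 11) markers were over it too, so the preparations held RNA of other cells, and fewer cells of a type cannot be told apart from less RNA per cell. The genotype labels were taken as given, since the deleted genes themselves were not analysed here.

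Of the 9 phosphodiesterase genes, 8 were over the floor and 1, Pde3a, was not. Pde4b and Pde4d passed it through the arrays after hCG: both were under 64 in both genotypes at 0 h, so they could hardly have been measured without differing, and their folds against 0 h depend on the background. Of the 25 probe sets, 14 reached 64 on at least 1 array and 11 on none. Intensities of different probe sets are not compared, because probes bind with different strength.

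Pde4b and Pde4d, both raised after hCG, and Pde8a, at least 2-fold above 0 h in the knockout and not in wild type (limma interaction adjusted p = 0.535), are the genes whose levels after hCG are described most fully, and the 250 bases before a RefSeq start (build GRCm38.p6) of each are shown for that reason. They are written 5' to 3' on the plus strand, in lower case, with capitals for the short core of the cAMP response element (CRE), TGACG, or CGTCA where it lies on the other strand. The windows are Pde4b at chr4:102421305-102421554, Pde4d at chr13:108653927-108654176 and Pde8a at chr7:81213015-81213264. Pde4b had 4 windows, and the 1 shown was picked because it held the core.
Pde4b: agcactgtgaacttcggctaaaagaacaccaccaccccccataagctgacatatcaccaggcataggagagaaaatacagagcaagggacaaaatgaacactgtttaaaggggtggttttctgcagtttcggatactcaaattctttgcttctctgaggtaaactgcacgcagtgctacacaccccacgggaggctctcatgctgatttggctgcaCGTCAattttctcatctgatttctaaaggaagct
Pde4d: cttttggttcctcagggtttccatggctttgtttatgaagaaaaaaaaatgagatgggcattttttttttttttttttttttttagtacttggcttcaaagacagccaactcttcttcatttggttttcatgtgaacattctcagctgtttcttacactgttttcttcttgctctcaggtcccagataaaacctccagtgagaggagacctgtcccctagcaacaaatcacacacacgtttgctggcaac
Pde8a: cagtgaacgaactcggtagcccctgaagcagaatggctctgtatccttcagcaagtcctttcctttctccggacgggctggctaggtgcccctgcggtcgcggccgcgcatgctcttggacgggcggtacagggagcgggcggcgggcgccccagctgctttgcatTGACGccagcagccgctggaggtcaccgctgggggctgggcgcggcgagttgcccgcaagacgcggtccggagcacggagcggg
The core began 34 bases before the start in the Pde4b window picked for it and 84 bases before it in Pde8a. The only Pde4d window held none. RefSeq promoter windows of 300 bases (250 before to 50 after a start) were found for 7 of the 9 genes, 16 windows in all, of which 4 were of Pde4b, 3 of Pde4a, 4 of Pde1a, 2 of Pde10a and 1 each of Pde4d, Pde7b and Pde8a. The core, searched on both strands, was in 4 of the 16 windows, 1 each of Pde4b, Pde4a, Pde1a and Pde8a, against 20.8% of all 32851 windows. The full element TGACGTCA, which contains the core, was in 0 of the 16 and in 1.79% of all windows. These matches describe the letters of the windows and do not show binding.

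Pde4b, which encodes a cAMP-specific enzyme of the PDE4 family, was low before hCG and far higher after it in both genotypes. Its brightest probe set, 1422474_at, read 58, 485 and 985 in wild type at 0 h, 2.5 h and 4 h, and 21, 236 and 193 in the knockout. All 4 arrays after hCG lay above both arrays at 0 h, and at each time the wild type array was the brighter. Relative to 0 h, wild type gained 8.36-fold by 2.5 h and 17.0-fold by 4 h. The knockout was 11.2-fold and 9.19-fold higher, against an intensity of 21 that lies in the range of background. From 2.5 h to 4 h, wild type was 2.03-fold higher while the knockout read 1.22-fold lower.

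Between genotypes, Pde4b was lower in the knockout by 2.06-fold at 2.5 h and by 5.10-fold at 4 h, and at 4 h it ranked 101 from the lowest of 11153 genes. At 0 h the values were 58 and 21, both under the floor. By 2 further probe sets that reached the floor, the difference between genotypes was about as large, but the response of the knockout was smaller. Probe set 1422473_at read 26, 129 and 239 in wild type and 23, 59 and 50 in the knockout, a difference of 4.78-fold at 4 h. Probe set 1442700_at read 17, 86 and 145 against 14, 36 and 27, a difference of 5.37-fold at 4 h. Both stayed under 64 on every knockout array, and the knockout at 4 h was 2.17-fold and 1.93-fold above its 0 h level by them, not 9.19-fold. The other 3 probe sets of Pde4b lay at 12 to 22 on every array.

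Pde4d, another cAMP-specific enzyme of the same family, was also far higher after hCG, but with the genotypes in the opposite order. Probe set 1435280_at read 60, 278 and 226 in wild type at 0 h, 2.5 h and 4 h, and 37, 772 and 597 in the knockout. Both knockout arrays after hCG lay above both wild type arrays after hCG, while at 0 h the knockout array was the dimmer, with both values under the floor. In wild type the level exceeded that at 0 h by 4.63-fold after 2.5 h and by 3.77-fold after 4 h. The knockout was 20.9-fold and 16.1-fold higher, against a 0 h intensity of 37, under the floor. The knockout was 2.78-fold above wild type at 2.5 h and 2.64-fold at 4 h. Both genotypes read lower at 4 h than at 2.5 h, by 1.23-fold in wild type and 1.29-fold in the knockout. The second probe set of Pde4d, 1459311_at, lay at 13 to 15 on all arrays, so the pattern of Pde4d rests on 1 probe set.

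**Figure D1:**
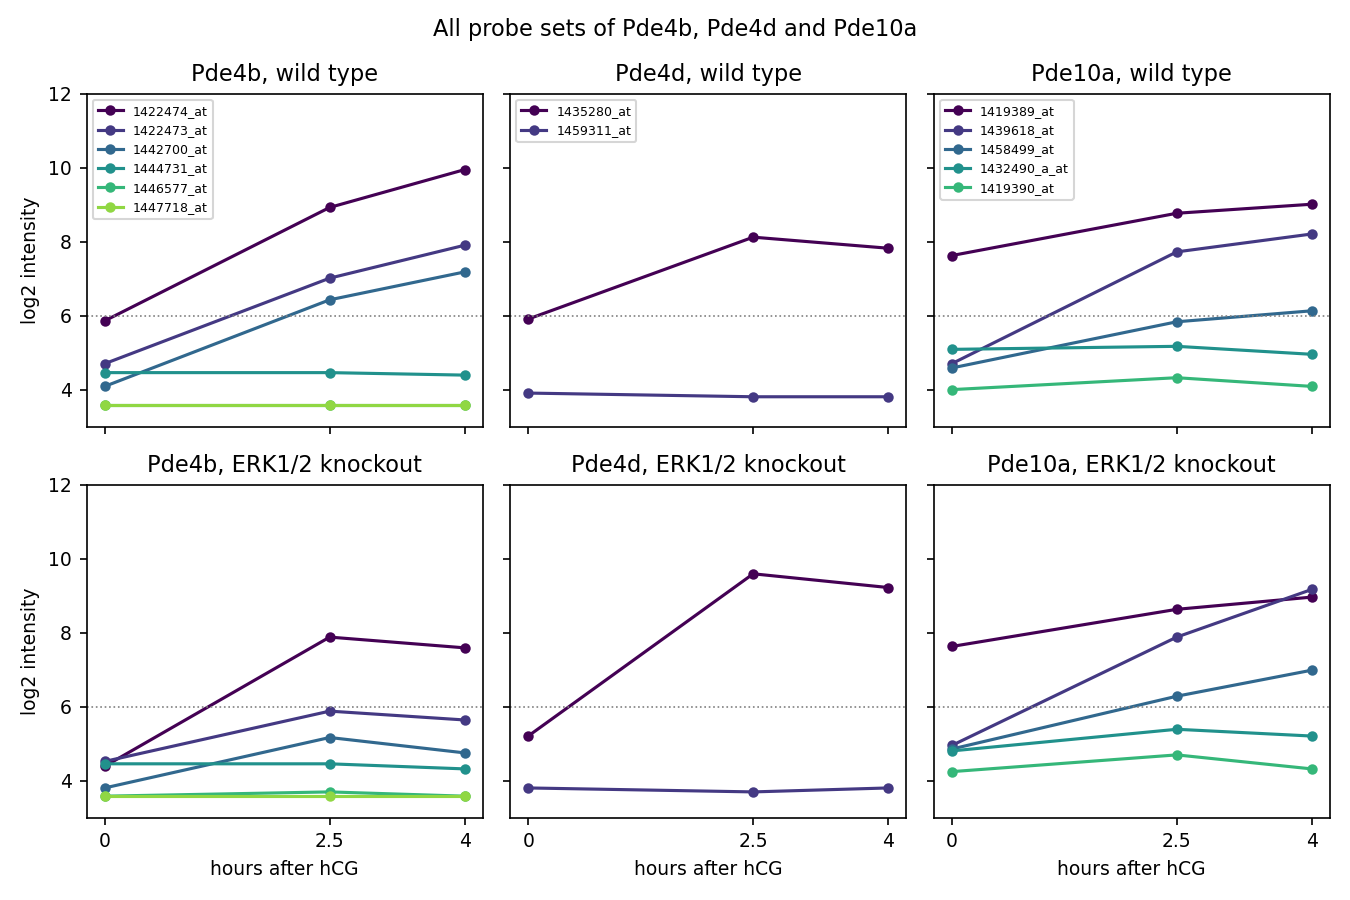
Log2 intensity of all probe sets of Pde4b, Pde4d and Pde10a (lines, named by probe set) against hours after hCG, with wild type above and knockout below and 1 array per point; the dotted line is the floor of log2 6. The 3 Pde4b probe sets over the floor end lower in the knockout than in wild type at 4 h, the measured Pde4d probe set ends higher, and the remaining Pde4b and Pde4d probe sets lie flat at background.

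Set against each other within an array, where any scaling of the whole array cancels, Pde4b and Pde4d moved apart between the genotypes (not tested). The log2 ratio of Pde4b to Pde4d in the knockout minus that in wild type was -2.51 at 2.5 h and -3.75 at 4 h, so the ratio was 5.71-fold and 13.5-fold lower in the knockout. With the other Pde4b probe sets in place of the brightest, this difference was -2.60 and -2.73 at 2.5 h and -3.66 and -3.83 at 4 h. At 0 h it was -0.77 by the brightest and 0.52 and 0.42 by the others, all from intensities under the floor. This ratio shows unequal change and not which of the pair changed.

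Pde4a, the third PDE4 gene measured, stayed near the floor. It read 69, 72 and 85 in wild type and 60, 67 and 77 in the knockout by its 1 probe set, 1421535_a_at. The genotypes overlapped, and the differences between arrays were at most 1.28-fold in the hCG comparisons and 1.15-fold between genotypes.

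**Figure D2:**
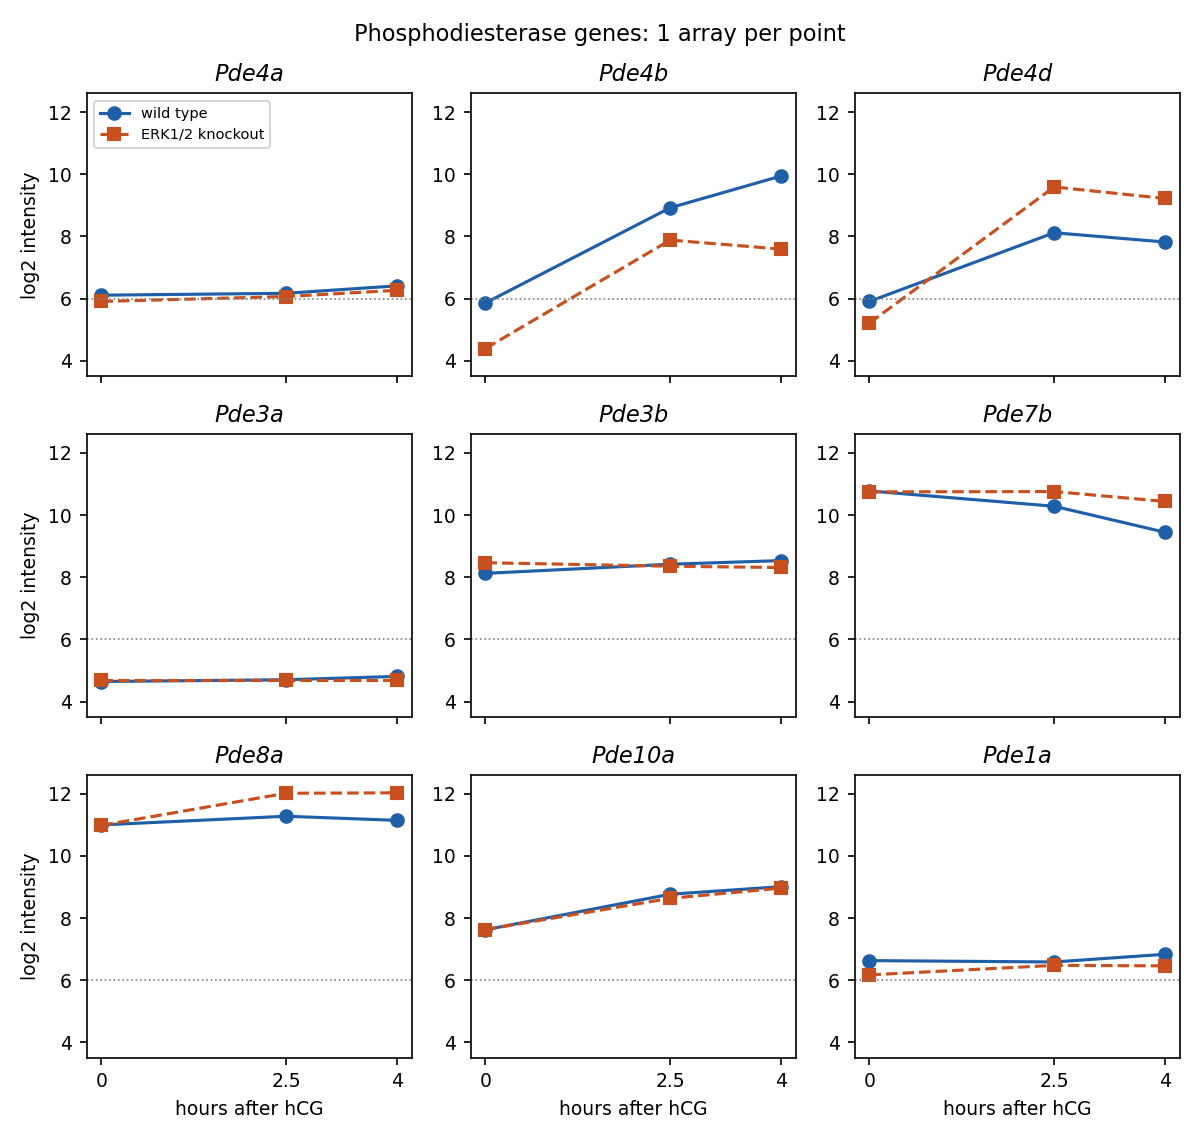
Log2 intensity of the brightest probe set of each of the 9 genes against hours after hCG, for wild type (circles, solid) and knockout (squares, dashed), 1 array per point, with the floor of log2 6 dotted. After hCG, Pde4b and Pde4d lie higher in both genotypes and part in opposite order, Pde10a lies higher with the genotypes close together, Pde8a is highest in the knockout, Pde7b is lowest in wild type at 4 h and Pde3a stays under the floor.

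Pde8a and Pde7b, of the cAMP-specific families PDE8 and PDE7, were bright at 0 h and alike in both genotypes there, then parted after hCG. By probe set 1418406_at, Pde8a read 2042, 2479 and 2261 in wild type and 2023, 4140 and 4178 in the knockout. Both knockout arrays after hCG stood apart from the other 4 arrays. Pde8a was 2.05-fold and 2.07-fold above 0 h in the knockout and 1.21-fold and 1.11-fold in wild type, and the knockout exceeded wild type by 1.67-fold at 2.5 h and 1.85-fold at 4 h. A dimmer probe set, 1418407_at, read 83, 121 and 84 against 93, 157 and 141, with the knockout 1.69-fold and 1.52-fold above 0 h. With cyclic loess scaling, the knockout values of the brightest probe set were 0.99 and 0.97 (log2), just short of 2-fold.

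Pde7b read 1754, 1247 and 698 in wild type and 1719, 1731 and 1388 in the knockout by its brightest probe set, 1445539_at. Wild type at 4 h was the lowest of the 6 arrays, 2.51-fold below 0 h, while the knockout at 4 h read 1.24-fold below its own 0 h. The knockout was 1.99-fold above wild type at 4 h, just short of the 2-fold used as the rule. Another probe set, 1450213_at, read 89, 81 and 56 in wild type and 72, 155 and 82 in the knockout, so the probe sets shared the low wild type value at 4 h but not the value in the knockout at 2.5 h. The third, 1421353_at, stayed at 27 to 53.

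Pde10a, which encodes a dual-specificity enzyme best known from the striatum, was higher after hCG in both genotypes by about the same factor. Probe set 1419389_at read 197, 435 and 515 in wild type and 198, 397 and 499 in the knockout. All 4 arrays after hCG exceeded both arrays at 0 h, and at each time the genotypes differed by at most 1.10-fold. The rise over 0 h was 2.21-fold and 2.61-fold in wild type and 2.01-fold and 2.52-fold in the knockout. A dimmer probe set, 1439618_at, gave much larger folds from a start under the floor: it read 26, 211 and 295 in wild type and 31, 236 and 576 in the knockout. By it the knockout at 4 h was 1.95-fold above wild type, and by another, 1458499_at, which read 24, 57 and 70 against 29, 78 and 127, it was 1.81-fold above. The probe sets of Pde10a thus agreed on the higher level after hCG and disagreed on the genotypes at 4 h. The remaining 2 stayed at 16 to 42.

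Among the dual-specificity enzymes of other families, changes were small. Pde3b, whose product cGMP inhibits, read 279, 342 and 371 in wild type and 354, 327 and 318 in the knockout by probe set 1433694_at, so the wild type arrays after hCG lay above their 0 h array and the knockout arrays below theirs, by at most 1.33-fold. Pde1a read 99, 96 and 114 in wild type and 72, 89 and 88 in the knockout by probe set 1449298_a_at, where each knockout value was the lower at its time, by at most 1.375-fold. Its second probe set, 1431625_at, stayed at 14 to 19. Pde3a, the main phosphodiesterase of the oocyte, read 25 to 28 on all arrays by its brightest probe set, 1450284_at, and 11 to 22 by its other 2. It stayed there while the summed intensity of the 16 measured oocyte markers went from 19684, 11843 and 12818 in wild type to 36521, 15444 and 13470 in the knockout.

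Counted over the 8 genes above the floor, the rule of a 2-fold difference with the brighter array at 64 or more was met by 3 on the higher side in wild type at 2.5 h, namely Pde4b, Pde4d and Pde10a, where 3.3% of all genes over the floor met it (4.29% counting both directions). It was met on the higher side by the same 3 at 4 h (4.91% of all genes) and by 4, with Pde8a added, in the knockout at 2.5 h (3.35%) and 4 h (3.87%). Counting both directions, 14% of all genes met it in wild type at 4 h, and 6.91% and 8.42% in the knockout at 2.5 h and 4 h. On the lower side, 1 gene met it, Pde7b in wild type at 4 h (9.11% of all genes), and 0 did in wild type at 2.5 h (0.995%) or in the knockout at 2.5 h (3.56%) and 4 h (4.55%). The median log2 difference of the 8 genes was 0.29 and 0.36 in wild type at 2.5 h and 4 h, where that of all genes was -0.22 and -0.21, and 0.65 and 0.70 in the knockout, where it was -0.02 and 0.02. Pde4b and Pde4d, under the floor at 0 h, entered the 8 through their arrays after hCG, which favours these higher counts and medians.

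Between genotypes, 1 gene was at least 2-fold higher in the knockout and 1 lower at each time after hCG. The higher gene was Pde4d at both times (1.44% of all genes were higher at 2.5 h and 5% at 4 h), and the lower was Pde4b (2.75% and 3.51%), with 4.2% and 8.52% counting both directions. Before hCG, 0 of 8 met the rule, with 0.681% of all genes higher, 0.852% lower and 1.53% in both directions. From 2.5 h to 4 h, Pde4b alone met it, on the higher side in wild type (1.17% of all genes higher, 1.87% lower, 3.05% in both directions). In the knockout 0 of 8 met it for that step, where 0.421% of all genes were higher, 0.484% lower and 0.906% in both directions. The median log2 difference of the 8 genes between genotypes was -0.12, -0.08 and -0.09 at 0 h, 2.5 h and 4 h, and that of all genes -0.03, 0.14 and 0.20.

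**Figure D3:**
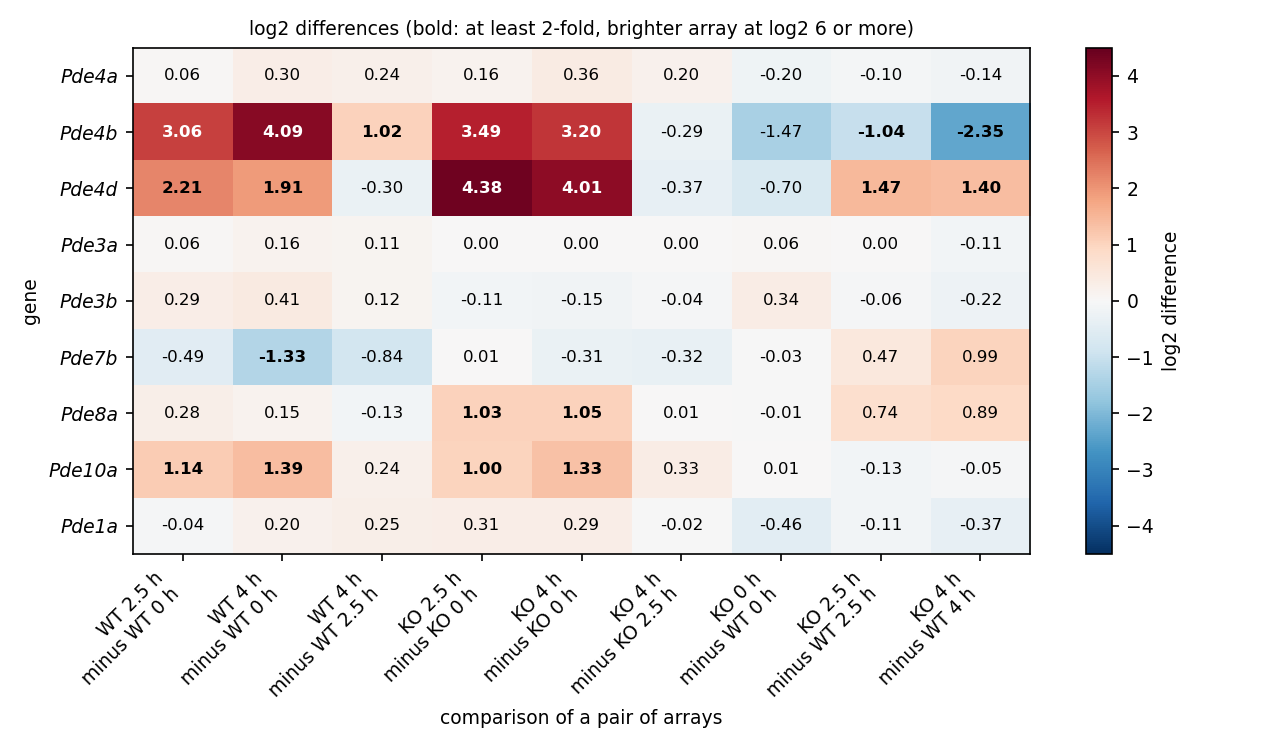
Log2 difference of the brightest probe set of each gene (rows) in 9 comparisons of a pair of arrays (columns, the first array minus the second), colour from blue (lower) to red (higher). Bold values meet the rule of at least 2-fold with the brighter array at log2 6 or more: Pde4b reads -2.35 and Pde4d 1.40 between knockout and wild type at 4 h.

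The response to hCG itself was set side by side in the genotypes. For Pde4d the log2 response in the knockout exceeded that in wild type by 2.17 at 2.5 h and 2.10 at 4 h, and 0.583% and 1.37% of all genes had a difference of responses as large in either direction. Of the 8 genes, Pde4d alone had a knockout response greater by at least 1 (log2) at 2.5 h, where 1.91% of all genes did, and Pde4d and Pde7b did at 4 h, where 5.97% of all genes did. A knockout response smaller by that much was seen in 0 of 8 at both times, where 2.2% and 3.37% of all genes had one. The knockout response of Pde7b exceeded the wild type one by 0.50 and 1.02, and that of Pde8a by 0.75 and 0.90. For Pde4b the difference was 0.43 at 2.5 h and -0.89 at 4 h by the brightest probe set, but -0.95 and -0.98 at 2.5 h and -2.08 and -2.14 at 4 h by the other 2 over the floor. All of these Pde4b and Pde4d values take 0 h intensities under the floor as baseline. Measured after hCG alone, the knockout minus wild type difference of Pde4d was 1.47 and 1.40. For Pde10a the knockout response minus the wild type response was -0.14 and -0.05 by the brightest probe set. By 1439618_at this was -0.09 and 0.71, and by 1458499_at 0.18 and 0.59, from 0 h values under the floor.

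**Figure D4:**
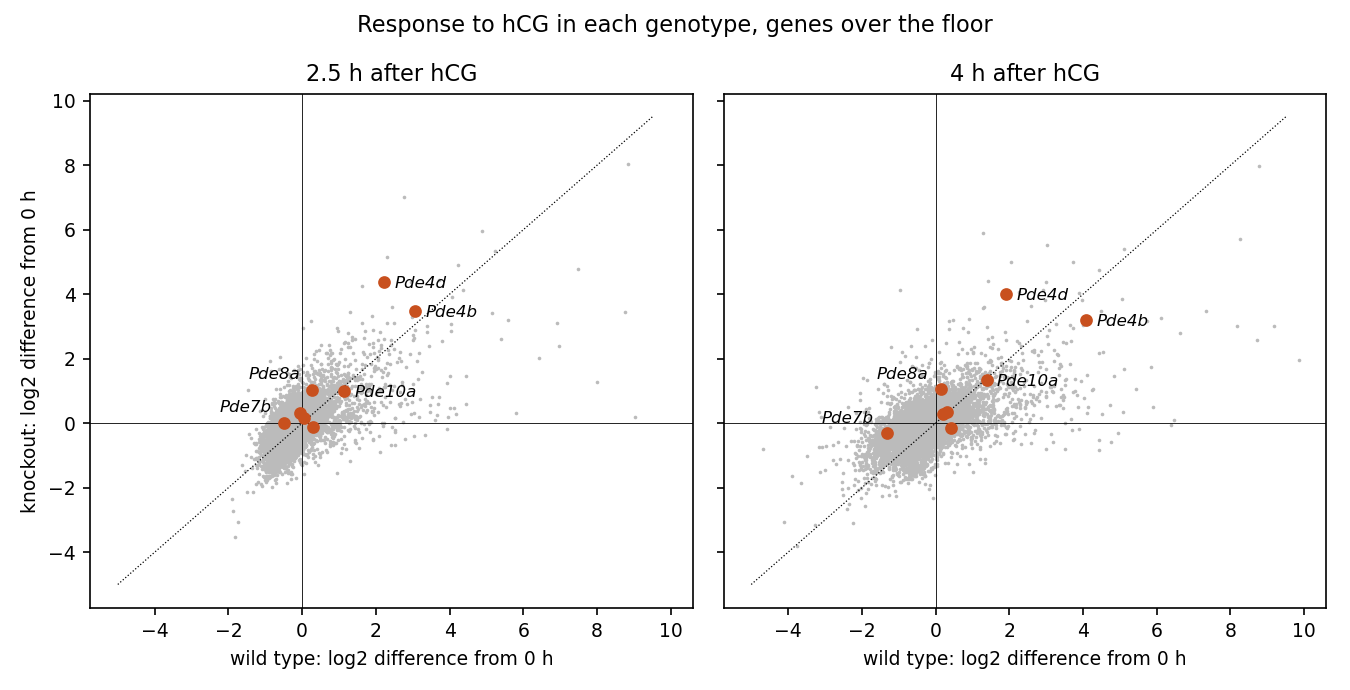
Log2 difference from 0 h in knockout against wild type at 2.5 h (left) and 4 h (right) after hCG for 11153 genes over the floor (grey points), with the 8 measured phosphodiesterase genes in orange and equal responses on the dotted line. Pde4d lies above the line at both times (4.38 against 2.21 at 2.5 h), and Pde4b by its brightest probe set lies below it at 4 h (3.20 against 4.09). Pde10a, also by its brightest probe set, lies close to it.

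Tests over all 6 arrays used limma on the 11153 genes with Benjamini-Hochberg adjustment. Each had 2 residual degrees of freedom, and none measured the spread between animals. In the hCG and genotype tests, the error was how unevenly a difference repeats across times or genotypes. The genotype by hCG interaction test took 2.5 h and 4 h as 1 group. Its error was therefore the difference between these times within each genotype. For the change after hCG, taken as the average of the later times against 0 h with the genotypes combined, 3 of 8 genes passed an adjusted p of 0.05, where 10.2% of all genes did. Of these 3, Pde4b and Pde4d had entered the 8 through their arrays after hCG, which favours their passing, and with no filter on low values 2 of 9 passed (2.37% of all genes). Pde4b rose by 3.46 (log2, SE 0.27, limma adjusted p = 0.00582), Pde10a by 1.22 (SE 0.14, adjusted p = 0.0121) and Pde4d by 3.13 (SE 0.46, adjusted p = 0.0221). All 4 arrays after hCG were above the 0 h array of their genotype for each of these 3 genes. Pde8a had an estimate of 0.63 (SE 0.22, limma adjusted p = 0.116) and Pde7b of -0.53 (SE 0.22, limma adjusted p = 0.179). Leaving out 1 array moved Pde8a from 0.21 (without the knockout at 0 h) to 1.04 (without wild type at 0 h), and it passed without wild type at 0 h or at 4 h (limma adjusted p = 0.0496 and 0.0241). It moved Pde7b from -0.15 (without wild type at 0 h) to -0.91 (without the knockout at 0 h), and Pde7b passed without the knockout at 4 h (limma adjusted p = 0.0161). Without that filter Pde4d had a limma adjusted p of 0.0537, the highest over its alternatives, which went down to 2.3e-06. Its estimate was 2.06 without the knockout array at 0 h and 4.20 without the wild type array at 0 h. For all of these genes, leaving out the 0 h array of 1 genotype makes the hCG estimate the response of the other genotype alone.

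For the genotype difference over the 3 times, 0 of 8 genes passed in limma, where 0.0359% of all genes did. At an unadjusted p under 0.05, 2 of 8 passed, where 17.4% of all genes did. Pde4b had the largest estimate, -1.62 (log2, SE 0.26, limma adjusted p = 0.091), lower in the knockout at both times after hCG. The 0 h values that enter it were both under the floor, and without either array at 0 h it was -1.70 (limma adjusted p = 0.0754). Without the pair of arrays at 2.5 h or 4 h, its limma adjusted p was 0.0486 and 0.00279, and over all alternatives it ranged from 0.00279 to 0.214. Pde4d had 0.73 (SE 0.43, limma adjusted p = 0.4), and without the pair at 0 h 1.44 (limma adjusted p = 0.0227, over all alternatives 0.0227 to 0.922). Leaving out either array of a time removes that time from this estimate. For the genotype by hCG interaction, 0 of 8 genes passed in limma and 0% of all genes did. At an unadjusted p under 0.05, 2 of 8 passed, where 9.1% of all genes did. Pde4d had an estimate of 2.13 (log2, SE 0.34, limma adjusted p = 0.412), formed against 0 h values under the floor, and Pde8a had 0.83 (SE 0.23, limma adjusted p = 0.535).

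Markers of other cells moved between the same arrays. The summed intensity of theca markers went 13759, 9542 and 5948 across the wild type arrays and 14533, 25480 and 25523 across the knockout ones. Cyp17a1, the androgen-forming enzyme, read 1994, 2037 and 1399 in wild type and 1845, 14251 and 13997 in the knockout. The other theca markers did not share that rise from 0 h. Of 6 over the floor, Cyp17a1 alone met the size rule upward in the knockout at 2.5 h and 4 h (3.35% and 3.87% of all genes). Ptch1 met it downward at both times and Agtr2 at 4 h (3.56% and 4.55% of all genes). Between genotypes, Cyp17a1 was higher in the knockout by the rule at 2.5 h (1.44% of all genes). At 4 h Cyp17a1, Aldh1a1 and Tcf21 were higher (5%) and Thbd was lower (3.51%). The part of theca markers in the higher Pde4d and Pde8a of the knockout was not tested. Leukocytes are known for high Pde4b. Of 14 macrophage and leukocyte markers, 11 were over the floor, and Ptprc, Itgam and Cd52 were under it on all 6 arrays. In the knockout 9 of the 11 read higher at 4 h than at 0 h, with Csf1r past the size rule (3.87% of all genes) at 222, 304 and 451. In wild type 5 of 11 read higher and 0 were past it (4.91% of all genes). At 4 h, 8 of 11 read higher in the knockout than in wild type. The sum of the 14 lay between 4007 and 4993, of which Laptm5 alone made 2214 to 3295. Their part in the Pde4b and Pde4d results was not tested. Endothelial markers summed to 850, 1469 and 1127 in wild type and 802, 842 and 844 in the knockout. Of 10, the 4 over the floor (Cdh5, Kdr, Cldn5 and Esam) all read lower in the knockout at 2.5 h and 4 h. Their median log2 difference between genotypes was -0.95 and -0.39, where that of Pde4b was -1.04 and -2.35. Cdh5 and Cldn5 were past the size rule at 2.5 h (2.75% of all genes) and 0 were at 4 h (3.51%). Pecam1, Vwf, Tie1, Emcn and Erg were under the floor on all arrays. Of 9 smooth muscle and stromal markers over the floor, 7 read lower in the knockout than in wild type at 2.5 h and 4 at 4 h. Pdgfrb alone met the size rule, lower at 0 h, 2.5 h and 4 h (0.852%, 2.75% and 3.51% of all genes). It read 213, 379 and 264 in wild type and 105, 66 and 98 in the knockout. The part of endothelial and stromal markers in the Pde4b difference was not tested. Of 15 oocyte markers over the floor, 14 and 15 met the rule downward from 0 h in the knockout at 2.5 h and 4 h (3.56% and 4.55% of all genes). In wild type 0 did (0.995% and 9.11%). All 15 still read lower there than at 0 h, with a median log2 difference of -0.72 and -0.53. At 0 h all 15 read higher in the knockout than in wild type, by a median of 0.91, with 2 past the rule (0.681% of all genes). At 4 h the median difference between genotypes was 0.04, with 8 higher and 7 lower. Granulosa markers summed to 120677, 89348 and 68940 in wild type and 115064, 140034 and 137744 in the knockout. Of 9, 5 were at least 2-fold below 0 h in wild type at 4 h (9.11% of all genes) and 0 in the knockout (4.55%). The part of granulosa markers in the lower Pde7b of wild type at 4 h was not tested.

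Other phosphodiesterases were mostly dim. Of 14 further genes measured, 5 were over the floor and 8 were under 64 on all 6 arrays, among them the rod and cone enzymes Pde6a, Pde6b, Pde6c, Pde6g and Pde6h, and Pde9a, a cGMP-specific enzyme. Of the 5, 0 met the size rule upward after hCG in either genotype, where 3.3% to 4.91% of all genes did. Downward, 1 did, Pde6d in wild type at 4 h, where 9.11% of all genes did. Pde6d, which encodes a prenyl-binding chaperone, read 527, 341 and 216 in wild type and 599, 467 and 542 in the knockout, 2.51-fold higher in the knockout at 4 h. Their median log2 difference from 0 h was -0.43 and -0.33 (wild type) and 0.04 and 0.13 (knockout).

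Of the cyclases, which make the nucleotides that phosphodiesterases remove, 9 of 18 measured were over the floor. Upward, 0 of 9 met the size rule after hCG in either genotype, where 3.3% to 4.91% of all genes did. Downward, 1 of 9 met it in wild type at 2.5 h (0.995% of all genes) and 2 at 4 h (9.11%), and 1 in the knockout at 2.5 h (3.56%) and at 4 h (4.55%). At 4 h, 2 of 9, Adcy6 and Adcy9, were higher in the knockout than in wild type by the rule (5% of all genes). Adcy9, an adenylyl cyclase, read 2971, 1628 and 692 in wild type and 2910, 1044 and 1453 in the knockout. Adcy7 read 243, 108 and 63 against 147, 105 and 117. Adcy6 read 600, 334 and 338 against 481, 629 and 903, 2.67-fold higher in the knockout at 4 h. The natriuretic peptide receptor Npr1, a guanylyl cyclase with a mean under the floor, read 21, 52 and 106 in wild type and 20 to 23 in the knockout.

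Effectors of cAMP and cGMP held 17 of 21 measured genes over the floor. Downward, 0 of 17 met the size rule after hCG in either genotype, where 0.995% to 9.11% of all genes did. Upward, 3 met it at 2.5 h and 4 at 4 h in wild type (3.3% and 4.91% of all genes), and 3 and 4 in the knockout (3.35% and 3.87%). At 2.5 h these were Prkg2, Crem and Bves in wild type and Prkar1a, Pkia and Crem in the knockout. Crem, a transcription factor gene of the cAMP response, read 103, 3886 and 2316 in wild type and 97, 3940 and 1088 in the knockout. Prkg2, a cGMP-dependent kinase, read 41, 110 and 2449 against 41, 41 and 58. Bves, one of the cAMP-binding Popeye proteins, read 157, 403 and 1586 against 96, 109 and 141, and its relative Popdc3, with a mean under the floor, 26, 55 and 115 against 23, 25 and 24. At 4 h, 3 of the 17, Prkg2, Crem and Bves, were at least 2-fold lower in the knockout than in wild type (3.51% of all genes). At least 2-fold higher were 0 (5% of all genes).

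Anchoring proteins and partners, which place phosphodiesterases beside protein kinase A or carry them to receptors, had 11 of 14 measured genes over the floor. Upward, 0 of 11 met the size rule in wild type at 2.5 h (3.3% of all genes) and 1 did at 4 h (4.91%). In the knockout 0 did at either time (3.35% and 3.87%). Downward, 1 did at 4 h in each genotype (9.11% of all genes in wild type, 4.55% in the knockout) and 0 at 2.5 h (0.995% and 3.56%). At 4 h, 4 of 11 (Akap1, Akap7, Akap8 and Arrb2) were higher in the knockout than in wild type by the rule, where 5% of all genes were. Lower were 0, where 3.51% of all genes were. Akap7, an anchor of protein kinase A, read 728, 421 and 189 in wild type and 721, 796 and 706 in the knockout. Arrb2, the beta-arrestin that can carry PDE4 to receptors, read 231, 161 and 175 against 257, 340 and 398. Ywhaz, a 14-3-3 protein, read 3105, 4902 and 7193 against 3494, 4424 and 4400, and Akap12 read 273, 264 and 281 against 527, 376 and 238. Of receptors and G proteins upstream of cAMP, 9 of 12 measured were over the floor. Ptger4, a prostaglandin E2 receptor, was the 1 gene that met the size rule upward in both genotypes at both times. Of all genes, 3.3% and 4.91% met it upward in wild type at 2.5 h and 4 h, and 3.35% and 3.87% in the knockout. Ptger4 read 136, 1788 and 1086 in wild type and 143, 3094 and 2998 in the knockout. Fshr, the follicle-stimulating hormone receptor, read 4454, 2233 and 708 against 5345, 4468 and 3603. It alone met the rule downward from 0 h, in wild type at 4 h (9.11% of all genes). Between genotypes, Fshr at 2.5 h and both Fshr and Ptger4 at 4 h were higher in the knockout by the rule (1.44% and 5% of all genes).

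Other genes had profiles close to those of Pde4b and Pde4d over the 6 arrays, among 3071 genes over the floor whose values ranged over at least 1 (log2). The closest to Pde4b by Pearson r were Inpp1 (r = 0.996), Cldnd1 (0.994), Frat2 (0.993), Sgms1 (0.992) and Wnt11 (0.991). Inpp1, an inositol phosphatase gene, read 65, 214 and 332 in wild type and 45, 157 and 142 in the knockout. The closest to Pde4d were Trp53inp2 (0.996), Slc38a4 (0.994), F2r (0.991), Fam91a1 (0.989) and Nfkb2 (0.986). F2r, the thrombin receptor, read 2377, 6029 and 6817 in wild type and 1895, 11337 and 9494 in the knockout. These r values come from 6 arrays that share the hCG response and are the highest of many, and they are given as a description. Between Pde4b and Pde4d r was 0.697, and between Pde4d and Pde8a 0.885.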

How the data were processed

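Affymetrix arrays were hybridised with biotin-labelled cRNA from 5 ug of total RNA, per the labels' protocols. RMA in affy was used by the authors, per the submitters' processing notes, with no version stated there. Each deposited intensity was a whole number on a linear scale, so log2 was taken, and rounding leaves dim values in coarse steps. The quantile step of RMA hides changes in total RNA. Of 45101 probe sets, 34958 named a single gene, 932 several and 9211 none, in the platform annotation. Gene IDs of 34754 were found in a table of GRCm38.p6, with 0 symbols changed. Tests used limma 3.58.1 in R 4.3.3 and were tested on simulated data. Counts of genes at least 2-fold different are a rule of size with no test. All 9 genes were named and the values of all their probe sets given, as ranges where dim. From each other pathway list up to 4 genes were named, those with the largest difference past the size rule, and for Pde4b and Pde4d the 5 genes with the highest r. Alternatives were the mean of a gene's probe sets, cyclic loess, other floors and folds, a shared baseline and leaving out each array. Members and lists were chosen with earlier results of these data known.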

Additional observations from a re-analysis of the deposited data

Results flagged for a closer look

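For 2 genes the genotypes moved in opposite directions with a gap between them of at least 0.5 (log2). For Pde4b this held only in the step from 2.5 h to 4 h, since it rose from 0 h in both genotypes. For Pde3b it held in the response from 0 h, with the gap reached at 4 h. From 2.5 h to 4 h, the log2 step of Pde4b was 1.02 in wild type and -0.29 in the knockout, and its other 2 probe sets over the floor gave 0.89 and 0.75 (wild type) against -0.24 and -0.41 (knockout). For Pde3b the log2 response to hCG was 0.29 at 2.5 h and 0.41 at 4 h in wild type, and -0.11 and -0.15 in the knockout. These opposite directions come from 1 array per genotype and time. The Pde4b step was not tested. For Pde3b the limma interaction had an adjusted p of 0.554 (0.362 to 0.843 over its alternatives).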

How the results depend on the processing

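The brightest probe set of a gene was the choice that moved most. With the mean of all probe sets, which takes in those lying at background and leaves 5 genes over the floor, 1 gene was at least 2-fold different from 0 h in wild type at 2.5 h and at 4 h and in the knockout at 2.5 h and at 4 h. Under that mean, 0 were so in the wild type step from 2.5 h to 4 h and between genotypes at 2.5 h and 4 h. Limma called 1 gene for the hCG response under it (7.03% of all genes). With the mean of only those probe sets that reach log2 6, an alternative chosen after seeing the data, the counts were 0 in the wild type step and 2 in the knockout at 4 h. A fold of 1.5 gave 2 genes in the wild type step and 4 between genotypes at 4 h, and no floor gave 1 gene, Pde4b, between genotypes at 0 h. For the size rule, the share of all genes was computed under the main settings alone, so these counts have none beside them. Leaving out 1 array gave 1 gene in every case for the genotype difference. It was Pde4d without 0 h (4.22% of all genes) and Pde4b without 2.5 h (0.143%) or 4 h (2.2%). For the hCG response, leaving out 1 array after hCG gave 3 to 4 genes (2.86% to 24.1% of all genes). Of 81 gene differences, most of which had not met the rule, 79 kept their side of it under cyclic loess and 65 when all probe sets were averaged. The 2 and 16 that did not keep it had all met the rule and no longer did. Of those past the rule, 0 changed sign. With the mean of both 0 h arrays as the baseline, all of 36 kept their side. No paired analysis was possible because each genotype and time had 1 array and the labels give no replicate numbers. Signal near background limits Pde4a, Pde1a and the 0 h values of Pde4b and Pde4d.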
